A study of Homo sapiens with 94 samples.

Results

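The integrated stress response and the unfolded protein response were followed in NCI-H226 xenograft tumors through 42 genes. The genes were picked by symbol, with earlier results of these data known, from the 20239 gene IDs of the deposited expression table, and all 42 were found there. By role they comprised 7 regulators, 5 stress effectors, 8 enzymes of amino acid and one-carbon synthesis, 6 amino acid transporters, 9 aminoacyl-tRNA synthetases (the enzymes that load tRNAs with their amino acids) and 7 genes of the unfolded protein response. NCI-H226 is an established human mesothelioma cell line, and all tumors were grown from this 1 line under the skin of SCID mice, which lack T and B cells but still supply vessels, stroma and myeloid cells.

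The study measured RNA from tumors after a single oral dose of K-975, an inhibitor of the TEAD transcription factors. Tumors were collected in 3 studies, at 1 h, at 3 to 6 h and at 24 h, and each study had tumors of untreated mice, of mice given the vehicle (ethanol, Solutol and glucose) and of mice given 30, 100 or 200 mg/kg. The dosing volume was 20 mL/kg for vehicle and for the highest dose but 10 mL/kg for the lower doses, so volume was not held constant across doses. Groups held 5 mice each by cage group, with 1 cage group per treatment at 1 h and 24 h and 2 per dosed or vehicle treatment at 3 to 6 h. The vehicle group at 24 h held 4 tumors. With 1 cage group per treatment, a cage and its treatment cannot be told apart at 1 h and 24 h.

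The integrated stress response begins when kinases that sense amino acid shortage, viral RNA, heme shortage or misfolded protein in the endoplasmic reticulum phosphorylate the initiation factor eIF2. General translation then falls while translation of the ATF4 mRNA rises, and ATF4, with partners of the C/EBP family, switches on genes for amino acid uptake, amino acid synthesis and tRNA charging. The unfolded protein response shares the kinase PERK with this pathway and adds the branches of IRE1, which splices XBP1 mRNA, and ATF6, which raises chaperones of the endoplasmic reticulum. Much of the control of ATF4 and XBP1 lies in translation and splicing, which a level of mRNA per gene does not measure.

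Both branches read short DNA elements near their target genes, and the sequences printed here show those elements for the genes used as reference cases and for the genes that share them. Promoters were taken from RefSeq (GRCh38.p14), which held an entry for 36 of the 42 genes, with 1 window per annotated start. The 250 bases before each start were searched on both strands for the C/EBP-ATF element (TGATGNAA, N being any base) and for the endoplasmic reticulum stress element (CCAAT, a spacer of 9 bases, then CCACG). The capitals mark the matched element, and each sequence is printed on the strand of its gene. The windows of ASNS at chr7:97872458-97872487 (minus strand), SLC1A5 at chr19:46784893-46784922 (minus), CEBPG at chr19:33374045-33374104 (plus) and CHAC1 at chr15:40953251-40953280 (plus, element on the opposite strand) hold the first element, and those of HSPA5 at chr9:125241371-125241430 (minus), XBP1 at chr22:28800598-28800627 (minus) and HSP90B1 at chr12:103930210-103930239 and chr12:103930315-103930344 (plus, the latter on the opposite strand) hold the second.
ASNS: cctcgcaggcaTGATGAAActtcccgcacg
SLC1A5: gaggaagtggcTGATGCAAgctgtccaggg
CEBPG: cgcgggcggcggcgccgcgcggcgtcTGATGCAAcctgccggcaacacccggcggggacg
CHAC1: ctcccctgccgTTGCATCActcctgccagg
HSPA5: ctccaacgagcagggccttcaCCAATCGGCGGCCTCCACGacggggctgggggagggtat
XBP1: cgctggCCAATCGCGGAGGGCCACGaccgt
HSP90B1, far element: ccctgaCCAATCGGAAGGAGCCACGcttcg
HSP90B1, near element: tgggtgCGTGGTGCGGCGCGATTGGtgggt

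The C/EBP-ATF element was found for 7 of the 36 genes (19.4%), against 3.89% of the 27305 genes with a RefSeq promoter, and the further matches were in AARS, GARS and HERPUD1. The endoplasmic reticulum stress element was found for 3 of the 36 genes (8.33%), against 0.0916% of all genes. HSP90B1 held it 2 times. The element of SLC1A5 lay before the third of its annotated starts and not before the other two. Of the genes lower after 200 mg/kg at 24 h, MTHFD2 and SLC7A5 held neither element in these windows, and SHMT2 and PYCR1, like NUPR1, PSPH, EPRS and YARS, had no promoter entry under the symbols used and were not searched. A match is a run of letters and was not tested for binding.

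Libraries were enriched with capture probes, and levels are given as FPKM (fragments scaled to transcript length and to the mapped fragments of the library), so a level also depends on how well a gene's probes capture it. Of 94 libraries, 91 had 11335 to 11654 genes at an FPKM of 1 or more and a relative depth of 0.449 to 1.84. The other 3 had 701, 7186 and 8524 such genes, were in the groups of 30 mg/kg at 24 h, 100 mg/kg at 24 h and 200 mg/kg at 1 h, and are left out unless stated. In the vehicle tumors of 24 h the mesothelial marker CALB2 stood at 508 ± 32.2 FPKM (SD, n = 4), CD3E, LYZ, SFTPC and SFTPB were listed at 0, PTPRC was at 0.179 ± 0.0749 FPKM. Of the endothelial markers, CDH5 was at 0.784 ± 0.185 FPKM and KDR at 45.6 ± 15.4 FPKM. The mesothelial marker UPK3B was near 1 FPKM, and CD68 (178 ± 34.3 FPKM) was high. KRT5, listed here among the alveolar and squamous lung markers, was high as well (726 ± 57.1 FPKM). TP63 of the same list was at 0.122 ± 0.244 FPKM. In bulk tumors, fewer cells of a type and less RNA per cell cannot be told apart. The 2 TEAD targets used as a check of dosing, CYR61 (CCN1) and CTGF (CCN2), fell by 1.26 and 1.44 on the log2 scale at 200 mg/kg and 24 h (limma adjusted p = 1.23e-05 and 2.11e-06).

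All 42 genes were expressed above the limit for testing. Median levels over the 91 tumors ran from 646 FPKM for the glutamine and alanine transporter SLC38A2 down to 0.476 FPKM for STC2, a secreted glycoprotein induced by stress. The most abundant members after SLC38A2 were SLC1A5, a glutamine transporter, at 613 FPKM, and HSP90B1, the HSP90 chaperone of the endoplasmic reticulum, at 486 FPKM. Only CHAC1, which degrades glutathione, and STC2 were listed at 0 in any tumor, in 10 and 12 of the 91 tumors. ATF4 itself varied little, between 71.2 and 98.9 FPKM with a median of 83.9. DDIT3 (CHOP), the factor tied to cell death under unresolved stress, was low at a median of 11.0 FPKM, and ASNS, the asparagine synthetase that serves as a classical ATF4 target, at 9.36 FPKM. The plot of levels shows that DDIT4, an inhibitor of mTORC1 signaling, had a wide range on the log axis, at 29.7 to 434 FPKM.

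**Figure D1:**
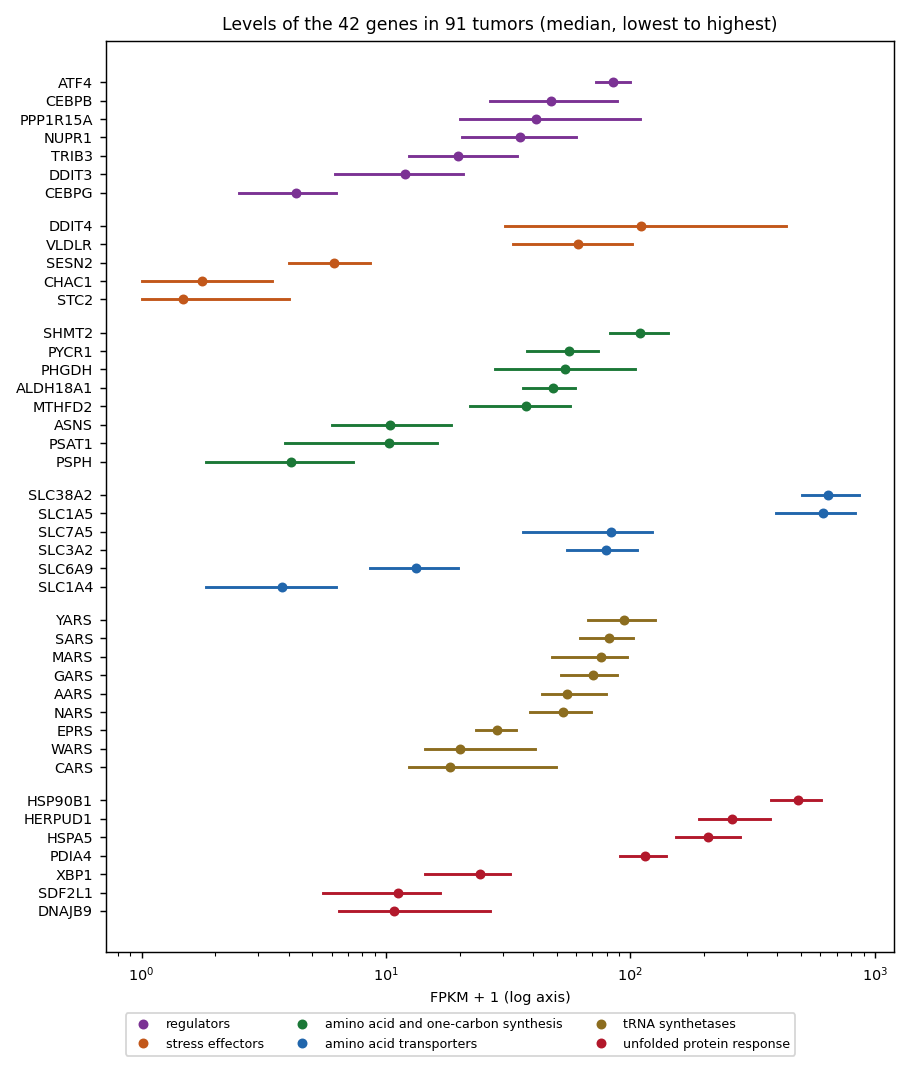
Level of each of the 42 genes in 91 tumors, on a log axis of FPKM + 1; the point is the median and the line runs from the lowest to the highest tumor, with colors for the 6 roles. SLC38A2 and SLC1A5 lie highest, CHAC1 and STC2 lowest, and DDIT4 spans 29.7 to 434 FPKM.

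At 24 h, 200 mg/kg lowered 5 of the 42 genes and raised none. All 5 serve amino acid uptake or mitochondrial one-carbon and proline metabolism, namely the transporters SLC7A5 and SLC1A5 and the enzymes MTHFD2, SHMT2 and PYCR1. Across all 13024 genes tested, 963 passed the threshold (7.39%), 468 of them lower (3.59%), against 11.9% of the members. The median log2 fold change was -0.16 over the members and 0.04 over all genes, and 32 of the 42 members had a value below 0, against 5817 of the 13024 genes. Before adjustment, 12 members and 2858 genes (21.9%) had p under 0.05.

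SLC7A5 (ENSG00000103257.8, chr16:87830023-87869488, minus strand), the light chain of the LAT1 exchanger that brings leucine and other large neutral amino acids into the cell, changed most. Its level was 35.4, 43.6, 44.9, 55.0 and 58.2 FPKM in the 5 tumors given 200 mg/kg, and 81.7, 84.4, 91.9 and 98.8 FPKM in the 4 vehicle tumors. The groups did not overlap, and untreated tumors of that study stood at 71.9 to 117 FPKM. How many of all genes separate in this way was not counted, so a lack of overlap, here and below, is a description only. The mean fell from 89.2 ± 7.73 FPKM (SD, n = 4) to 47.4 ± 9.21 (SD, n = 5), a log2 fold change of -0.92 (SE 0.18; limma, adjusted p = 0.000669). SLC3A2, the heavy chain that carries SLC7A5 to the membrane, was at 72.4 ± 18.9 against 81.2 ± 4.16 FPKM and did not pass (log2 -0.19; limma adjusted p = 0.313). Of the members, the study's own signature lists SLC7A5 and SLC3A2 as genes that rise with TEAD activity, and CEBPB as a gene that falls with it. Whether TEAD acts on these genes here was not tested.

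SLC1A5 (ENSG00000105281.12, chr19:46774883-46788594, minus strand), the ASCT2 carrier of glutamine, was measured at 393, 451, 469.7, 492 and 616 FPKM after 200 mg/kg. In vehicle tumors it was at 579, 599, 662 and 726 FPKM, so 4 of the 5 treated tumors lay under every vehicle tumor. The log2 fold change was -0.42 (SE 0.10; limma, adjusted p = 0.00409). SLC1A4, a carrier of serine and alanine with a low level, was at 1.66 ± 0.471 FPKM after 200 mg/kg and 2.96 ± 1.27 with vehicle (log2 -0.54; limma adjusted p = 0.197). SLC38A2 and the glycine carrier SLC6A9 differed by -0.04 and 0.14.

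MTHFD2 (ENSG00000065911.11, chr2:74198562-74217565, plus strand) and SHMT2 (ENSG00000182199.10, chr12:57229327-57234935, plus strand) work one after the other in the mitochondrial folate pathway, where SHMT2 takes a carbon unit from serine and MTHFD2 oxidizes it. MTHFD2 read 22.9, 24.2, 25.9, 31.8 and 35.1 FPKM at 200 mg/kg and 40.8, 42.7, 45.8 and 55.9 FPKM with vehicle, with a log2 fold change of -0.71 (SE 0.18; limma, adjusted p = 0.00659). SHMT2 read 81.8, 97.5, 98.6, 101 and 119 FPKM against 120.4, 122, 130.1 and 132 FPKM, a smaller difference of -0.34 on the log2 scale (SE 0.09; limma, adjusted p = 0.0109). In neither gene did the treated and vehicle tumors overlap, although the highest treated tumor of SHMT2 lay just under the lowest vehicle tumor. The untreated tumors of that study did overlap the treated ones, at 29.2 to 48.1 FPKM for MTHFD2 and 103 to 136 FPKM for SHMT2.

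PYCR1 (ENSG00000183010.16, chr17:81932384-81941079, minus strand), which makes proline in mitochondria, was at 39.0, 42.3, 42.3, 49.0 and 51.1 FPKM after 200 mg/kg. The vehicle tumors were at 58.0, 58.9, 62.2 and 62.4 FPKM, again with no overlap, and the log2 fold change was -0.43 (SE 0.12; limma, adjusted p = 0.022). Untreated tumors had PYCR1 at 48 to 72.4 FPKM and overlapped the treated ones. ALDH18A1, which acts earlier in the same synthesis, stood at 43.6 ± 3.84 against 48.4 ± 5.14 FPKM and did not pass (log2 -0.15). The serine synthesis enzymes did not pass the test either, with values of 0.31 for PHGDH, -0.25 for PSAT1 and -0.05 for PSPH. ASNS was at 8.87 ± 2.23 FPKM after 200 mg/kg and 8.07 ± 0.686 FPKM with vehicle, a log2 difference of 0.10 with a 95% interval of -0.34 to 0.53.

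**Figure D2:**
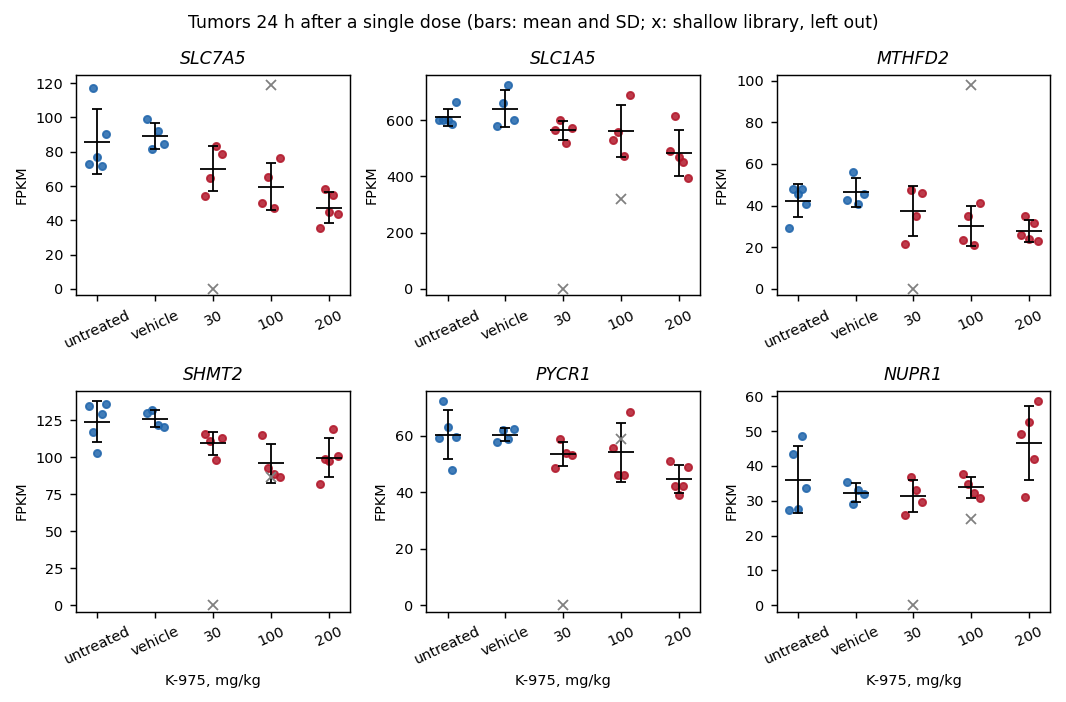
FPKM of SLC7A5, SLC1A5, MTHFD2, SHMT2, PYCR1 and NUPR1 in each tumor at 24 h, by treatment (points are tumors, bars the mean and SD, crosses the 2 shallow libraries left out). The tumors given 200 mg/kg lie under all vehicle tumors for SLC7A5, MTHFD2, SHMT2 and PYCR1, while 4 of 5 lie above them for NUPR1. Against the untreated tumors, only SLC7A5 shows no overlap. The share of all genes that separate like this was not counted.

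None of the 7 regulators passed the test at 200 mg/kg and 24 h. ATF4 was at 81.7 ± 7.40 FPKM (SD, n = 5) against 90.2 ± 4.40 (SD, n = 4), a log2 difference of -0.14 (SE 0.07; limma adjusted p = 0.22), and DDIT3 at 10.6 ± 1.65 against 11.8 ± 1.81 FPKM. The widest difference among the regulators was that of NUPR1, a small chromatin-associated stress protein, at 31.1, 41.9, 49.2, 52.7 and 58.7 FPKM after 200 mg/kg and 29.0, 32.0, 33.2 and 35.3 FPKM with vehicle (log2 0.49; limma adjusted p = 0.125). Untreated tumors had NUPR1 at 27.3 to 48.5 FPKM and overlapped the treated ones. The pseudokinase TRIB3, which restrains ATF4, stood at 18.5 ± 3.11 FPKM after 200 mg/kg and 18.7 ± 2.04 FPKM with vehicle. PPP1R15A (GADD34), which guides the phosphatase that reverses eIF2 phosphorylation, and CEBPB, a C/EBP partner of ATF4, had values of -0.46 and -0.39 and did not pass, and CEBPG, another such partner, had -0.25.

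Among the stress effectors, DDIT4 had the largest fold change, and its tumors overlapped. They ran from 49.9 to 172 FPKM after 200 mg/kg and from 116 to 184 FPKM with vehicle (log2 -0.42, SE 0.41; limma adjusted p = 0.6). SESN2, a leucine sensor that holds back mTORC1, differed by -0.26, VLDLR, a lipoprotein receptor, by 0.01, CHAC1 by -0.32 at 0.614 ± 0.219 against 1.01 ± 0.294 FPKM, and STC2 by 0.14. None of the 5 passed.

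The 9 tRNA synthetases lay between -0.39 and 0.04, and none passed. WARS, the tryptophanyl-tRNA synthetase, had the largest value, with 14.1, 19, 19.2, 20.4 and 24.0 FPKM after 200 mg/kg and 20.7, 21.9, 25.7 and 35.3 FPKM with vehicle (limma adjusted p = 0.202). Its untreated tumors were at 14.9 to 17.9 FPKM, below every vehicle tumor, and against them the sign turned (log2 0.17; limma adjusted p = 0.614). YARS, the tyrosyl enzyme, was the other one with an unadjusted p under 0.05, at a log2 value of -0.22.

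The 7 unfolded protein response genes had values on both sides of 0, and none passed the test. HSPA5 (BiP), the main chaperone of the endoplasmic reticulum, came nearest, at 180.4 ± 31.3 FPKM (SD, n = 5) against 216 ± 5.52 (SD, n = 4), a log2 difference of -0.27 (limma adjusted p = 0.082). SDF2L1, a partner of BiP, had the largest difference at -0.42, with 5.18, 5.36, 7.34, 9.51 and 11.4 FPKM against 8.25, 10.2, 10.8 and 12.3 FPKM, and these values overlapped (limma adjusted p = 0.282). PDIA4, a disulfide isomerase, and XBP1 were at -0.20 and -0.19, HSP90B1 at -0.03, and HERPUD1 and DNAJB9, which serve degradation and folding of proteins in the endoplasmic reticulum, both at 0.16.

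**Figure D3:**
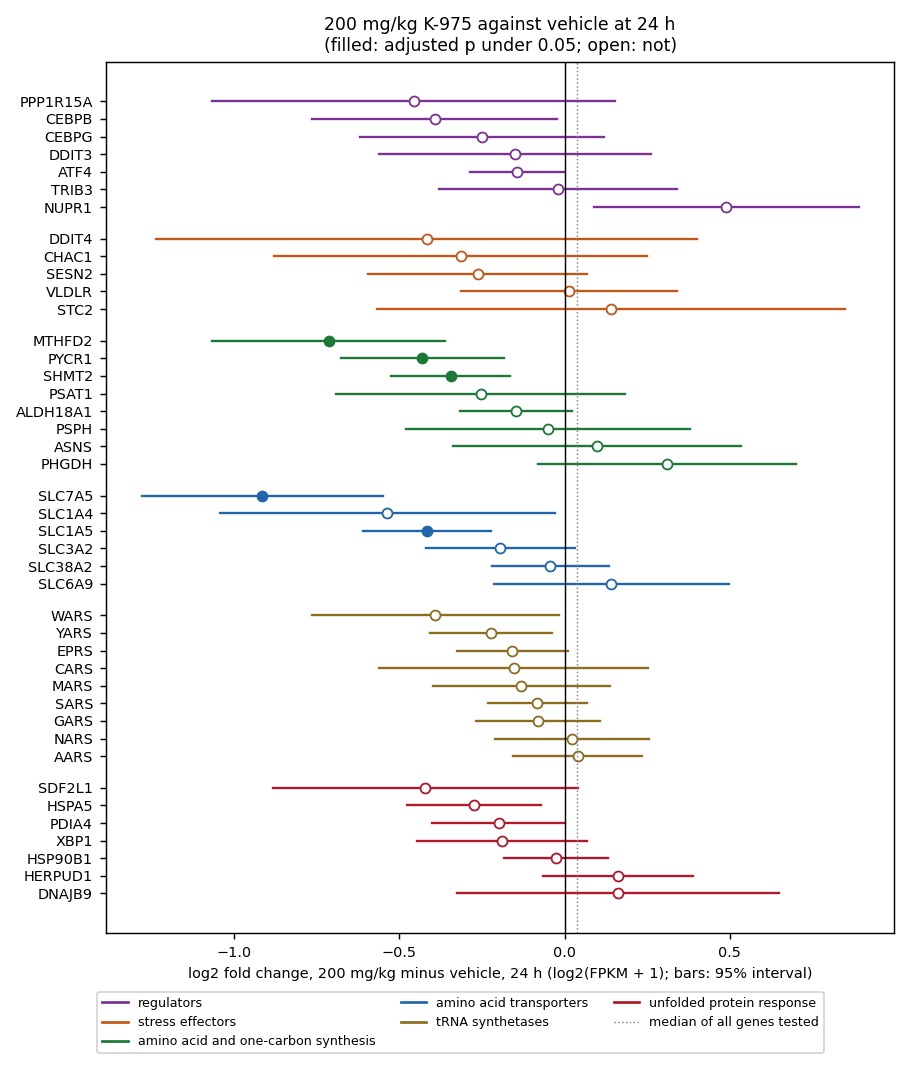
Log2 fold change of each of the 42 genes at 24 h, 200 mg/kg minus vehicle, on the scale of log2(FPKM + 1), with the 95% interval as a line and filled points for an adjusted p under 0.05. The 5 filled points, all left of 0, are SLC7A5, MTHFD2, PYCR1, SLC1A5 and SHMT2, and the dotted line is the median of all genes at 0.04.

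The 5 calls at 200 mg/kg rest on the fit without the shallow libraries. When the 3 shallow libraries were put into the same fit, none of 13029 genes passed, and the adjusted p of each of the 5 members was 1, although neither group compared holds a shallow library and the fold changes did not move. Leaving out single tumors gave 4 to 8 members called, the 8 without replicate 2 of 200 mg/kg, which added NUPR1 (higher), YARS and HSPA5. SLC7A5, SLC1A5 and MTHFD2 passed in all 9 of these fits, SHMT2 in 8 and PYCR1 in 7. Fitted on these 2 groups only, SLC7A5, MTHFD2 and PYCR1 passed, and SLC1A5 and SHMT2 did not (limma adjusted p = 0.0828 and 0.0907).

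Set against the untreated tumors of the 24 h study in place of vehicle, 7 members (16.7%) were lower at 200 mg/kg, where 8.28% of all genes passed. These were the 5 above, with SLC7A5 at -0.84, and in addition CEBPB (log2 -0.59; limma adjusted p = 0.0237) and HSPA5 (log2 -0.39; limma adjusted p = 0.00581). At 100 mg/kg against untreated tumors (1.98% of genes), DDIT3 (log2 -0.73), CEBPB (-0.65), PPP1R15A (-1.19), SHMT2 (-0.37) and HSPA5 (-0.36) were lower, and at 30 mg/kg (0.353% of genes) DDIT3 (-0.86) and HSPA5 (-0.42). These 3 comparisons share their untreated tumors. Between vehicle and untreated tumors, limma called 0 of 42 members and 0 of 13024 genes in each of the 3 studies. Before adjustment, 0 to 2 members and 547 to 629 genes had p under 0.05. A lack of calls does not show that these groups were alike.

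The lower doses at 24 h were compared with the same vehicle tumors and gave fewer calls. At 100 mg/kg, where 144 genes passed (1.11%), SHMT2 alone of the members did, at 87.0, 89.0, 92.5 and 115 FPKM (log2 -0.40; limma adjusted p = 0.016), with every tumor under every vehicle tumor. The shallow library of that group had 86.9 FPKM. Untreated tumors overlapped those given 100 mg/kg for SHMT2 (103 to 136 FPKM) and for SLC7A5 (71.9 to 117 FPKM). SLC7A5 was at 46.9, 50.0, 65.4 and 76.1 FPKM (log2 -0.60; limma adjusted p = 0.107), again under all vehicle tumors, and MTHFD2 at 21.0, 23.3, 34.9 and 41.3 FPKM (log2 -0.65; limma adjusted p = 0.0603). The largest fold change among the members at this dose was that of PPP1R15A, at 20.1 to 34.7 FPKM against 47.8 to 54.9 FPKM with vehicle (log2 -0.91; limma adjusted p = 0.154). CEBPB was at 41.5 to 49.6 FPKM against 51.7 to 68.9 FPKM (log2 -0.45; limma adjusted p = 0.258), and DDIT4 had a log2 value of -0.77. None of these 3 passed. The tumors of each lay wholly under the vehicle tumors, but how many of all genes separate like this was not counted. The median log2 fold change of the 7 regulators was -0.45 at 100 mg/kg and -0.15 at 200 mg/kg. Before adjustment 4 and 3 of them had p under 0.05, as had 1833 and 2858 of the 13024 genes. None of the 7 passed after adjustment at either dose. The call of SHMT2 was lost without vehicle replicate 1 or 2 or without replicate 2 or 3 of 100 mg/kg, and 3 members passed without replicate 4 of 100 mg/kg.

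At 30 mg/kg and 24 h, limma called 5 genes (0.0384%) and 0 members, while 8 members and 1305 genes had an unadjusted p under 0.05. SLC7A5 was at 54.1, 64.6, 78.9 and 83.2 FPKM (log2 -0.36), MTHFD2 had a log2 value of -0.35, SHMT2 of -0.20, SLC1A5 of -0.18 and PYCR1 of -0.17. The shallow library of this group, with 701 genes detected, listed all 5 at 0, and with it 24 members passed, 22 of them lower. At the 3 doses, 33, 35 and 32 of the 42 members were below 0 in ascending order of dose, and the 3 counts share their vehicle tumors.

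A slope over dose at 24 h, with vehicle as 0 mg/kg, passed for 730 genes (5.61%) and for the 5 members called at 200 mg/kg. Per 100 mg/kg the slope was -0.42 for SLC7A5 (limma adjusted p = 0.000754), -0.33 for MTHFD2, -0.19 for PYCR1, -0.18 for SLC1A5 and -0.16 for SHMT2. For SHMT2 the values by group did not follow dose, since its mean was 95.8 ± 12.8 FPKM at 100 mg/kg and 99.7 ± 13.3 at 200 mg/kg. Fitted on the 24 h groups only, SLC7A5 alone passed.

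At 1 h and at 3 to 6 h no member passed against vehicle in limma. At 3 to 6 h the highest dose gave 9 genes past the threshold (0.0691%), the middle dose 56 (0.43%) and the lowest dose 2 (0.0154%), with 0 members in limma. At an unadjusted p under 0.05 there were 2, 2 and 1 members and 942, 1336 and 916 genes in the same order. SLC7A5 at 3 to 6 h ranged from 44.5 to 122 FPKM in the 2 cage groups of 200 mg/kg and from 56.4 to 111 FPKM in the 2 vehicle cage groups. Its log2 fold change was -0.14 at 200 mg/kg and -0.38 at 100 mg/kg (95% interval -0.62 to -0.14; limma adjusted p = 0.169). The slope over dose at 3 to 6 h passed for 28 genes (0.215%) and no member. At 1 h, limma called 1 gene at 100 mg/kg (0.00768%), none at 30 or 200 mg/kg and no member, and 2, 2 and 1 members and 570, 648 and 433 genes had an unadjusted p under 0.05 at 30, 100 and 200 mg/kg. ATF4 at 1 h differed by -0.13 and DDIT3 by 0.39 at 200 mg/kg (limma adjusted p = 1).

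The effect of 200 mg/kg at 24 h was set against the earlier effects. SLC7A5 was the only member whose effect differed between times, by -0.77 from that at 3 to 6 h (SE 0.22; limma adjusted p = 0.0469) and by -1.01 from that at 1 h (SE 0.26; limma adjusted p = 0.0382). In these comparisons 224 genes (1.72%) and 80 genes (0.614%) passed. Both calls sat at the threshold, since SLC7A5 passed in 10 of 29 and in 8 of 18 fits that left out 1 tumor, with differences of -0.85 to -0.68 and of -1.11 to -0.92. For the other members called at 24 h the differences from 3 to 6 h were -0.67 for MTHFD2, -0.50 for PYCR1, -0.35 for SLC1A5 and -0.27 for SHMT2, none past the threshold.

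**Figure D4:**
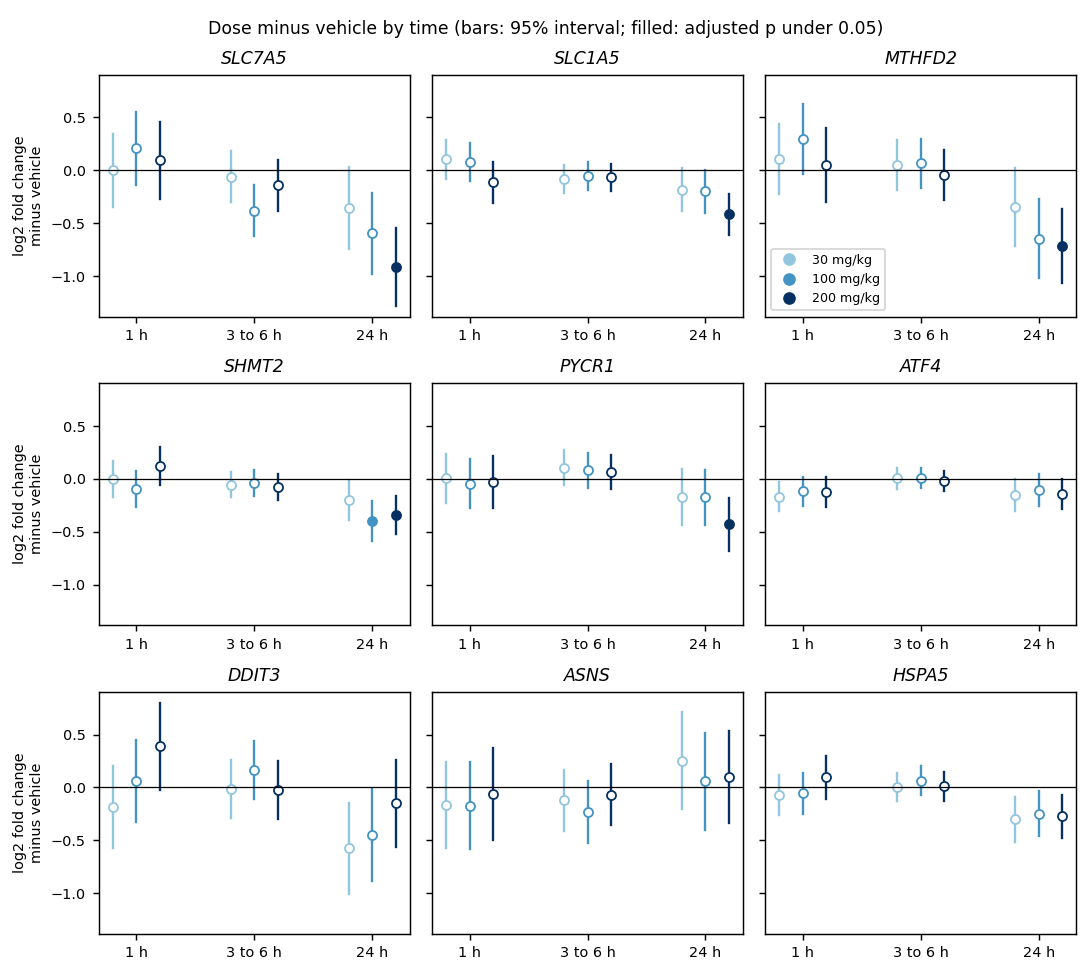
Log2 fold change against vehicle at 1 h, 3 to 6 h and 24 h for 3 doses, with 95% intervals, for the 5 genes called at 24 h and for ATF4, DDIT3, ASNS and HSPA5 (filled points have an adjusted p under 0.05). Filled points occur only at 24 h, 5 at 200 mg/kg and 1 (SHMT2) at 100 mg/kg, and at 24 h SLC7A5 runs from -0.36 through -0.60 to -0.92 with dose.

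Of 69 other genes of the pathway, 9 passed at 24 h and 200 mg/kg, 8 lower and 1 higher, and the median log2 fold change of the 69 was -0.09. The share of all tested genes that passed in this comparison was 7.39%. The lower ones were EIF2S1 (-0.46), the eIF2 subunit that the stress kinases phosphorylate, the cationic amino acid transporter SLC7A1 (-0.49), the tRNA export factor XPOT (-0.35), the tRNA synthetase genes KARS (-0.24), FARSA (-0.26) and FARSB (-0.45), the chaperone CALR (-0.21) and KDELR2 (-0.27), which returns chaperones to the endoplasmic reticulum. OMA1, the mitochondrial protease that starts the signal of mitochondrial stress to eIF2, was the higher one, at 7.23 ± 1.71 against 3.86 ± 0.910 FPKM (log2 0.75; limma adjusted p = 0.0318). By subgroup, 2 of 16 stress sensors and translation factors, 2 of 17 further transcription factors and ATF4 targets, 3 of 11 further synthetases and 2 of 25 further folding and degradation genes passed, and these small counts are not set apart from that share. Against vehicle, none of the 69 passed in limma at any other dose or time.

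Hypoxia-responsive genes were lower as well at 24 h. Of 10 listed, 9 were tested, and all 9 had lower values at 200 mg/kg and 24 h, 3 past the threshold, namely ADM (log2 -1.74), the glucose transporter SLC2A1 (-1.09) and LDHA (-0.43), and the summed level of the 10 listed genes was 963 to 1709.6 FPKM in the treated tumors, 1695 to 2497 FPKM in the vehicle tumors and 1796 to 2826 FPKM in the untreated tumors. At 100 mg/kg 8 of 9 were lower, 2 past the threshold, and at 30 mg/kg all 9 were lower, 0 past it. Their median log2 fold change was -0.51, -0.78 and -0.43 at 30, 100 and 200 mg/kg. In the same order it was -0.13, -0.16 and -0.16 for the 42 members and -0.15, -0.45 and -0.15 for the 7 regulators. ADM is also in the study's own signature as a gene that rises with TEAD activity. Between tumors of the same group, the mean of the 10 genes went with PPP1R15A (Pearson's r = 0.84), DDIT4 (0.81), CEBPB (0.77) and SHMT2 (0.64), and not in that way with SLC7A5 (-0.31), SLC1A5 (-0.25), PYCR1 (-0.36) or MTHFD2 (-0.01), over 91 tumors as deviations from group means. The remaining members lay between -0.47 (PHGDH) and 0.55 (HSP90B1), with HSPA5 and DDIT3 at 0.48, HERPUD1 at 0.46 and DNAJB9 at 0.41. The part of the hypoxia genes in the lower level of SHMT2 and of other members was not tested. Of 8 mesothelial markers, MSLN, CALB2 and KRT19 were higher at 24 h and 200 mg/kg, and the other 5 did not pass. The summed mesothelial level was 2943 to 3515 FPKM after 200 mg/kg and 2911 to 2976 FPKM with vehicle, and the part of these markers in the results was not tested. None of the tested leukocyte, endothelial and stromal markers passed. Their summed levels after 200 mg/kg and with vehicle were 127 to 207 and 146 to 223 FPKM for leukocytes, 26.8 to 92.2 and 31 to 67.8 FPKM for endothelium, and 22.2 to 35.1 and 31.4 to 36.6 FPKM for stroma.

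Between tumors of the same group, some members varied together. Across 861 pairs of members the median r was 0.081 and 17.4% of pairs were above 0.3, against 0.003 and 2.58% over all pairs of tested genes. The pairs of all genes were not matched to the members for expression level, so the contrast is a description only. The points share libraries, depth and total scaling, and r of the members with relative depth lay between -0.24 and 0.34. The strongest pairs joined PPP1R15A with DDIT4 (0.84) and with CEBPB (0.80), and PPP1R15A also went with SHMT2 (0.69) and HSPA5 (0.66). HSPA5 and HSP90B1, both chaperones of the endoplasmic reticulum, had r = 0.64. Their r with the mean of the hypoxia genes was 0.48 and 0.55.

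The synthetases had a median r of 0.27 over their 36 pairs, and the transporters varied with some of them, SLC1A5 with YARS (0.62) and SLC7A5 with SARS (0.58). VLDLR had r of -0.69 with GARS, -0.61 with SLC1A5 and -0.58 with MTHFD2. DDIT3 had r = 0.55 with HSPA5 and 0.50 with PPP1R15A, and ATF4 had r = 0.18 with DDIT3. By spread within groups, DDIT4 was the most variable member, with a residual SD of 0.63 on the log2 scale, above 95.8% of genes, and ATF4 the least, with 0.10, above 2.13% of genes.

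**Figure D5:**
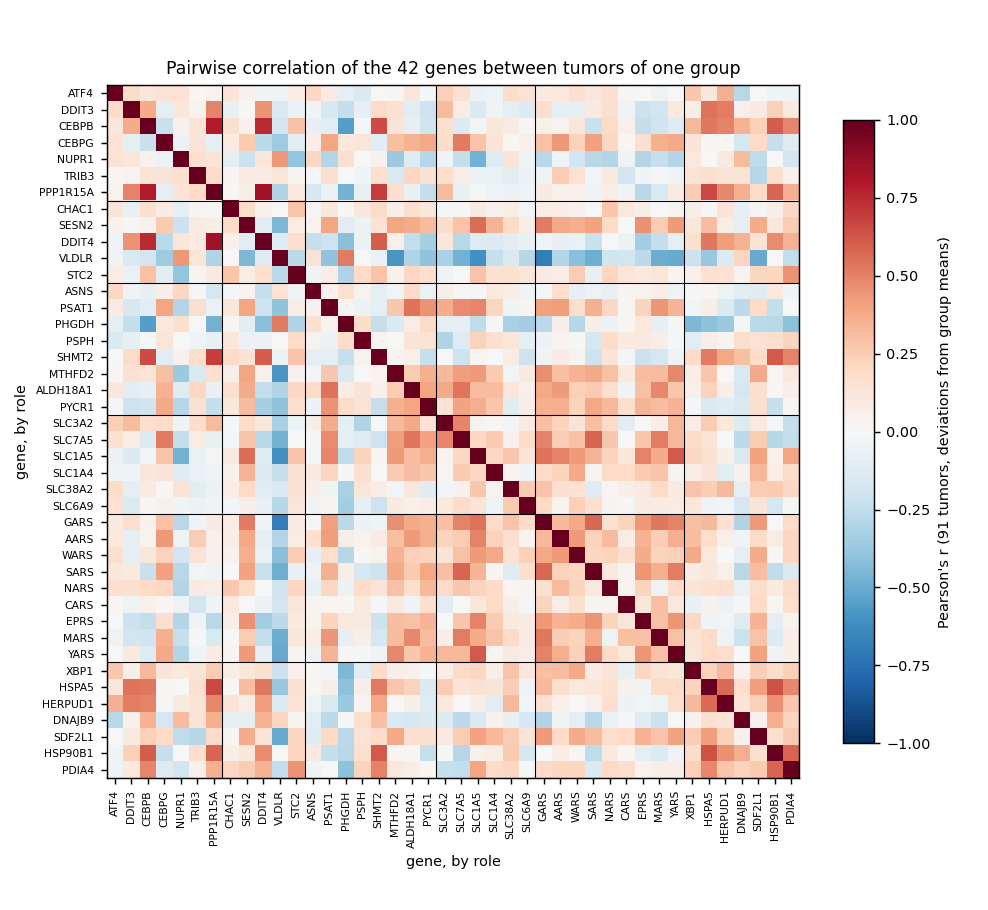
Pearson's r between each pair of the 42 genes over 91 tumors, computed on deviations of log2(FPKM + 1) from group means, with genes ordered by role and lines between roles. The darkest red off the diagonal is at PPP1R15A with DDIT4 (0.84) and CEBPB (0.80), and the darkest blue at VLDLR with GARS (-0.69).

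CEBPB also differed between cages that received the same vehicle. At 3 to 6 h it was at 35.3 to 81.4 FPKM in vehicle cage group 3 and 28.6 to 37.4 FPKM in vehicle cage group 2, a log2 difference of 0.73 (limma adjusted p = 0.0397). Between these cages 42 of 13024 genes passed (0.322%), 1 of them a member. PPP1R15A differed by 1.03 (limma adjusted p = 0.0935) and SHMT2 by 0.32 (limma adjusted p = 0.0666) in the same direction, and SLC7A5 by 0.09. All 9 tested hypoxia genes were also higher in cage group 3, with a median log2 difference of 0.89, and PDK1 and SLC2A1 passed (limma adjusted p = 0.016 and 0.0254). Their part in the difference of CEBPB, PPP1R15A and SHMT2 was not tested. The call of CEBPB held in 3 of 10 fits that left out 1 tumor. The labels give a cage group without saying which cages were taken at 3 h and which at 6 h, so cage and time cannot be told apart there. Between the 2 cages of each dose, 0, 6 and 2 genes passed at 30, 100 and 200 mg/kg, and no member.

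Several members share their locus with another gene, and whether the counting used strand is not given in the sources used here. DDIT3 overlaps MARS, which lies on the opposite strand. For SHMT2 and MTHFD2, overlapping partners were low at 24 h, with NDUFA4L2 (over SHMT2) at 6.01 ± 2.34 FPKM after 200 mg/kg and 4.02 ± 2.15 with vehicle, and SLC4A5 (over MTHFD2) at 4.13 ± 1.92 and 1.62 ± 0.341. SLC7A5 had no overlapping protein-coding gene in the annotation. Genes of other types were not searched for overlaps.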

How the data were processed

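RNA of 94 tumors was sequenced after probe capture. The authors deposited 1 table of FPKM per gene and tumor. Per the submitters' processing notes, STAR and GRCh38 were used, and the tool that made the FPKM, its use of strand and its treatment of mouse reads are not given in the sources used here. Of 20555 entries, 20239 gene IDs were kept and 32 blank cells were read as 0. Table starts became 1-based by adding 1. The table held no column without a sample and no comparison of the authors.

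Read totals are not in the table, so relative depth was estimated from genes detected in 5 to 30 libraries. It is the inverse of the median, over these genes, of a detected FPKM divided by the gene's median detected FPKM. No counting interval is given. Libraries with at least 10000 genes at an FPKM of 1 (91 of 94, highest correlation between any pair 0.981) and genes at an FPKM of 1 in at least 4 libraries (13024) entered a single limma 3.58.1 fit (R 4.3.3) of log2(FPKM + 1) over 19 groups, with a trended robust prior and Benjamini-Hochberg adjustment per comparison over all genes at 0.05. Fold changes on this scale understate those of low genes. Simulated data with known changes at 24 h and 200 mg/kg gave back 51% of changes of 0.5 and 91% of changes of 1 on the log2 scale, with 3 false calls among 13024 genes. Changes were put only into genes with a mean log2(FPKM + 1) above 3. Noise was independent between genes, and no other gene differed between groups. These rates do not cover members with lower levels or genes that vary together.

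The members and lists were chosen with earlier results of these data known. Full values are given for members past the threshold in any comparison with vehicle and for the member of each role with the largest fold change at 200 mg/kg and 24 h, and other pathway genes are named where they passed. CEBPG, CHAC1, XBP1 and HSP90B1 promoters were printed in addition, after their matches were seen. Alternatives were all 94 libraries, the compared groups alone, a pseudocount of 0.1, no filter, quantile or median scaling, untreated tumors or single cage groups as control, and leaving out each tumor. Values of some marker and overlapping genes are not reported here.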

Additional observations from a re-analysis of the deposited data

Results flagged for a closer look

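Of 171 groups tested in 9 members, 12 held a tumor far from the others by Dixon's criterion, where chance gives about 1 in 20 groups. SLC7A5 was at 122 FPKM in a tumor given 200 mg/kg at 3 to 6 h (cage group 4), with the others at 72.3 to 83.2. SLC1A5 was at 782 FPKM in an untreated tumor of the 1 h study (others 532 to 578), at 829.9 FPKM in a tumor given 30 mg/kg at 1 h (649 to 681) and at 664 FPKM in an untreated tumor of the 24 h study (585 to 602). SHMT2 was at 114 FPKM in a tumor given 100 mg/kg at 3 to 6 h (99.8 to 102).

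NUPR1 was at 23.6 FPKM in the tumor given 30 mg/kg at 1 h that was also high in SLC1A5 (33.3 to 34.5), and at 39.5 FPKM in a tumor given 30 mg/kg at 3 to 6 h (31.2 to 32.9). DDIT4 was at 129.8 FPKM in a tumor given 100 mg/kg at 1 h (39.3 to 63.1), at 364 FPKM in a tumor given 200 mg/kg at 3 to 6 h (97.7 to 163) and at 246 FPKM in a tumor given 100 mg/kg at 3 to 6 h (85.3 to 110.0). WARS was at 14.4 FPKM in a vehicle tumor at 3 to 6 h (18 to 19.1), and SDF2L1 at 13.3 FPKM in a tumor given 100 mg/kg at 24 h (6.98 to 7.64).

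The effect of 200 mg/kg on SLC7A5 differed between times, by -0.77 on the log2 scale between 24 h and 3 to 6 h and by -1.01 between 24 h and 1 h (limma adjusted p = 0.0469 and 0.0382). Time and study coincide and cannot be told apart.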

How the results depend on the processing

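With all 94 libraries, 0 members passed at 24 h for 200 mg/kg, 100 mg/kg, the slope over dose, both differences between times and the vehicle cages, and 24 passed for 30 mg/kg. The slopes of SHMT2, PYCR1 and SLC1A5 then turned to 0.143, 0.069 and 0.213. Fitted on the compared groups alone, 3 members passed at 200 mg/kg (274 genes in place of 963), 0 at 100 mg/kg (5 in place of 144) and 1 for the slope (301 in place of 730). With untreated tumors as control 5 members passed at 100 mg/kg and 2 at 30 mg/kg, and WARS at 200 mg/kg turned to 0.170. Median scaling gave 2 members at 100 mg/kg. Without the filter both differences between times gave 0 members, and quantile scaling gave 0 for 24 h against 3 to 6 h. The causes were not tested.

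Leaving out 1 tumor gave 4 to 8 members at 200 mg/kg and 24 h (389 to 1535 genes), 0 to 3 at 100 mg/kg (30 to 289 genes), 4 to 7 for the slope, 0 to 3 and 0 to 2 for the differences of 24 h from 3 to 6 h and from 1 h, 0 to 3 for the vehicle cages and 0 elsewhere. At 200 mg/kg, SHMT2 was lost without replicate 1 of 200 mg/kg (limma adjusted p = 0.0793) and PYCR1 without vehicle replicate 2 or replicate 3 of 200 mg/kg (up to 0.0711). Across all alternatives, 403 of 468 counts and 324 of 403 fold changes kept their verdict, and 4 fold changes reversed. A count of 0 kept it by staying 0, and any other count by staying within a fixed factor of the main count. Many counts come from comparisons with 0 members called, and some fold changes belong to members that did not pass. The tally is therefore no measure of how firm the calls are. No paired analysis was possible because replicate numbers follow the order of deposit and pair no tumors. Depth is known only in relative terms, which limits CHAC1 and STC2, below 1 FPKM in 61 and 65 of 91 tumors.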
